A study of Mus musculus with 3 samples.

Results

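In mouse hearts at embryonic day 9.5, a small class of endothelial-type nuclei held RNA of at least 2 of the genes Dkk2, Ano1, St6galnac5 and Pmepa1. It made up 101 of 2904 endothelial-type nuclei of Ncx1+/+ hearts and 48 of 2497 of Ncx1+/- hearts, and no nucleus of Ncx1-/- hearts met its rule. These 149 nuclei, of 38192 nuclei analysed in all, were chosen by their own counts. A nucleus with at least 500 detected genes was taken as endothelial-type, or gated, when it held at least 1 UMI (a counted RNA molecule) of at least 4 of 11 endothelial genes: Pecam1, Cdh5, Kdr, Tek, Tie1, Emcn, Flt1, Egfl7, Ptprb, Erg and Eng. Each of 8 sets of 4 genes was then scored by how many of its genes had a UMI. A gated nucleus was a member when at least 2 of Dkk2, Ano1, St6galnac5 and Pmepa1 were detected and no other set reached as many. The levels of those 4 genes in members are therefore a description of the choice and not a finding, and no contrast of members with other gated nuclei carries a test.

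The libraries are single-nucleus RNA-seq of whole hearts of 3 genotypes, Ncx1+/+ (wild type), Ncx1+/- with 1 mutant allele and Ncx1-/- with none but mutant alleles. Ncx1 is the gene now named Slc8a1, and it encodes the sodium-calcium exchanger of heart muscle. Each genotype is 1 library from 5 frozen hearts pooled before nuclei were taken, so the spread between hearts is unknown and no difference between genotypes could be tested. Intervals below are exact 95% intervals that cover counting error only. They would stay as narrow if a difference came from 1 pool or 1 library preparation. The study's title puts the work in the setting of flow, of cilia on the endocardium and of cushion cells that turn mesenchymal. The strain, the sex of the embryos and how the mutant allele was made were not stated in the sources used here.

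The endocardium is the endothelial lining of the heart. In the outflow tract, the arterial end of the heart tube, its cells derive in large part from the second heart field, whose progenitors express the LIM-homeodomain factor Isl1. In the outflow tract and atrioventricular canal, endocardial cells respond to TGF-beta and BMP ligands from the muscle, enter a hyaluronan-rich matrix called cardiac jelly and form the cushions that become valves and septa. Dkk2 is a secreted modulator of Wnt signalling that binds LRP co-receptors. Ano1 is a calcium-activated chloride channel, St6galnac5 is a sialyltransferase that acts on gangliosides, and Pmepa1 is a membrane protein that dampens TGF-beta signalling.

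Nuclei with at least 500 genes numbered 13562 in the Ncx1+/+ library, 12305 in Ncx1+/- and 12325 in Ncx1-/-. Members had a median of 5303 UMIs in Ncx1+/+ and 5091.5 in Ncx1+/-, against 5305, 4538 and 4420 in the other gated nuclei of Ncx1+/+, Ncx1+/- and Ncx1-/-. Slc8a1, read in cardiomyocyte nuclei, stood at 16525 CPM (the UMIs of a gene over all nuclei of a class, per 1000000 UMIs of that class) in Ncx1+/+, 8734 in Ncx1+/- and 1248 in Ncx1-/-, in the order of the labels. The Ncx1-/- library stood apart in further ways. The nuclear RNA Malat1 took 5.52% of the UMIs of its gated nuclei, against 2.79% and 2.95% in other gated nuclei of Ncx1+/+ and Ncx1+/-. Nuclei with over 0.5% of UMIs from 8 cardiomyocyte genes made up 41.6% of its gated nuclei, against 26.1% and 27.8%. Among members those shares were 16.8% and 20.8%, and Malat1 took 3.02% and 2.86%. The 36 genes of a hypoxia and glycolysis list summed to 6833 CPM in its gated nuclei, against 2614 and 3361 in other gated nuclei and 2017 and 2396 in members of Ncx1+/+ and Ncx1+/-; the glycolytic enzyme Hk2 stood at 185, 232 and 645 CPM over gated nuclei of the 3 libraries. The erythroid list summed to 196 CPM there, against 404 and 442. Between 40 and 57 barcodes were shared by each pair of libraries, and none of them was a member.

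Members formed 3.48% of gated nuclei in Ncx1+/+ (95% Clopper-Pearson interval 2.84% to 4.21%) and 1.92% in Ncx1+/- (1.42% to 2.54%). In Ncx1-/- the count of 0 of 2244 allows a share of up to 0.134% by a limit of 3 nuclei, and up to 0.164% by the Clopper-Pearson interval. The Ncx1+/- share was 0.553 of the Ncx1+/+ share (0.384 to 0.787). Against the limit of 3 nuclei, the Ncx1+/+ share was at least 26.0-fold higher than the Ncx1-/- share and the Ncx1+/- share at least 14.4-fold higher. These bounds leave out counting error in the Ncx1+/+ and Ncx1+/- shares. Of all nuclei with at least 500 genes, members were 0.745% in Ncx1+/+ and 0.390% in Ncx1+/-. Because a deeper nucleus shows more genes, each gated nucleus was also thinned to 2500 UMIs, which left out 159, 234 and 274 shallower gated nuclei. On thinned counts the shares were 2.03% (48 of 2368), 1.41% (28 of 1990) and 0.0598% (1 of 1673). The thinned Ncx1+/- to Ncx1+/+ ratio was 0.694 with an interval of 0.419 to 1.13, which includes 1, while the thinned Ncx1-/- to Ncx1+/+ ratio was 0.0295 (0.000732 to 0.172). Both intervals count nuclei of single libraries and test no genotype. Fewer such cells and less RNA of these genes per cell cannot be told apart in these counts.

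**Figure D1:**
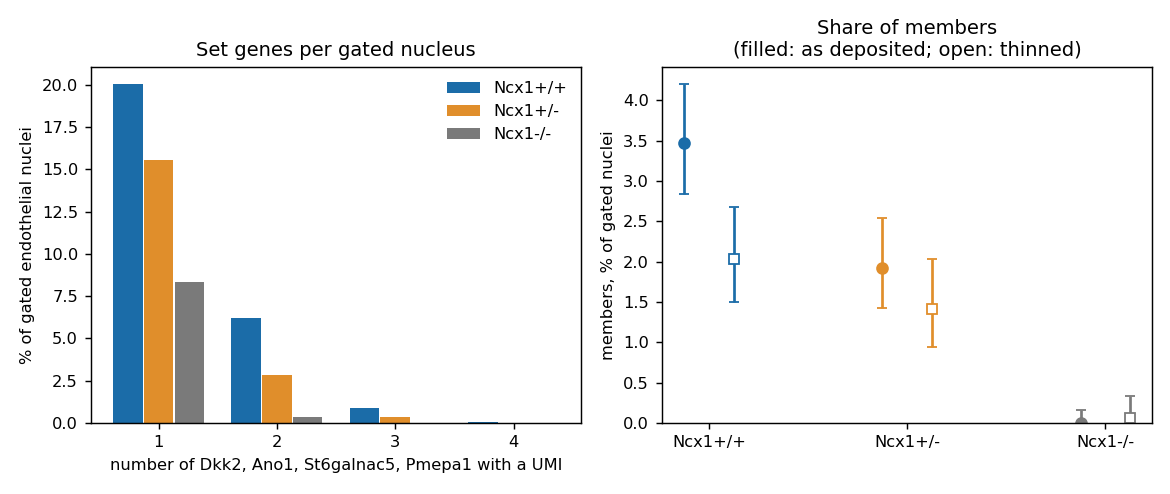
Left, the percentage of gated endothelial nuclei of each library (y axis) in which 1, 2, 3 or 4 of Dkk2, Ano1, St6galnac5 and Pmepa1 had a UMI (x axis). Right, the percentage of gated nuclei that were members, as deposited (filled) and after thinning to 2500 UMIs (open), with 95% Clopper-Pearson intervals for counting error. Bars and points fall from Ncx1+/+ to Ncx1+/- to Ncx1-/-, and the thinned Ncx1+/+ and Ncx1+/- intervals overlap.

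The shares were ordered Ncx1+/+, Ncx1+/-, Ncx1-/- at every step of the rule. None of the 4 genes was detected in 72.8%, 81.3% and 91.3% of gated nuclei of Ncx1+/+, Ncx1+/- and Ncx1-/-. A single set gene was seen in 20.1%, 15.5% and 8.33%. At least 2 were seen in 207, 78 and 8 nuclei, which is 7.13%, 3.12% and 0.357%. Of those, 73, 23 and 6 tied with another set and 33, 7 and 2 had more genes of another set, which left the 101, 48 and 0 members. The set that tied or was higher was most often the Fam155a set in Ncx1+/+ and Ncx1+/- (47 and 15 nuclei), followed by the set of Sox9, Pdgfra, Robo2 and Twist2, which are genes of cushion mesenchyme (46 and 9 nuclei; a nucleus can count under several sets). Among the 8 such nuclei of Ncx1-/- those sets counted for 2 and 3, and the Slc24a4 and Ebf3 sets for 5 each. Members rested on few molecules: 75 of the Ncx1+/+ members and 40 of the Ncx1+/- members had exactly 2 set genes, 25 and 8 had 3, and 1 Ncx1+/+ nucleus had 4. The commonest pair was Ano1 with Pmepa1, in 48 and 27 members, and Dkk2 with St6galnac5 was seen in 11 and 1.

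Ano1 (chr7:144588549-144751974, minus strand, mm10) was the set gene seen in most Ncx1+/+ members. It stood at 282 CPM in members against 29.1 in other gated nuclei of Ncx1+/+, and at 355 against 18.3 in Ncx1+/-. It had a UMI in 77 of 101 and 35 of 48 members. All Ncx1-/- gated nuclei together held 3.45 CPM. Pmepa1 (chr2:173224458-173276533, minus strand) stood at 184 against 28.1 CPM and at 258 against 21.5 CPM, and at 12.6 CPM in Ncx1-/-; it was seen in 69 and 40 members. Dkk2 (chr3:132085292-132180304, plus strand) stood at 167 against 16.4 CPM and at 144 against 7.62 CPM, with a UMI in 34 and 11 members, so 67 of the 101 Ncx1+/+ members were chosen without it. St6galnac5 (chr3:152817081-152982246, minus strand) stood at 147 against 13.0 CPM and at 97.2 against 7.07 CPM, was seen in 49 and 18 members, and stood at 2.22 CPM in Ncx1-/-.

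Averaged over Ncx1-/- gated nuclei, Dkk2 was near the level of cardiomyocyte nuclei. It stood at 4.60 CPM with a UMI in 0.980% of them, while cardiomyocyte nuclei of the same library held 5.49 CPM and a UMI in 0.962%, at median depths of 4420 and 3592 UMIs. It was uneven among these gated nuclei, at 10.5 CPM with an Isl1 UMI, 3.82 without and 11.6 in the Sema4d set. Cardiomyocyte nuclei of Ncx1+/+ held 1.87 CPM of Dkk2. For Ano1 the corresponding shares were 1.29% of gated and 0.391% of cardiomyocyte nuclei, for St6galnac5 0.980% and 0.447%, and for Pmepa1 5.79% and 2.68%. In Ncx1+/+ the gated shares were 4.13% for Dkk2, 10.7% for Ano1, 6.1% for St6galnac5 and 14.4% for Pmepa1, against cardiomyocyte shares of 0.417%, 0.586%, 0.507% and 3.53% at a median of 3720 UMIs.

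Ano1 was also high in erythroid nuclei, which reached 626 CPM in Ncx1+/+, 640 in Ncx1+/- and 393 in Ncx1-/-, with a UMI in 57.0%, 56.4% and 41.8% of 384, 344 and 55 nuclei. Erythroid RNA did not mark the members. The 12 genes of an erythroid list summed to 324 and 309 CPM in members, against 404 and 442 in other gated nuclei and 22541.5 and 21699 in erythroid nuclei. Among gated nuclei without any UMI of that list, members made up 35 of 817 (4.28%), 12 of 687 (1.75%) and 0 of 1242, and Ano1 stood at 281 CPM in Ncx1+/+ members against 25.2 in other nuclei. In Ncx1+/- the same values were 593 and 17.2 CPM, over only 12 members. Ano1 is a set gene, so its higher level in members follows from the choice in these nuclei too. The part of erythroid RNA in the Ano1 counts of members was not tested.

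The 4 genes kept company with one another when each was left out of the choice in turn. Nuclei chosen on the other 3 genes had a higher level of the left-out gene than the remaining gated nuclei in both libraries. For Ano1, 40 Ncx1+/+ nuclei and 19 Ncx1+/- nuclei were chosen without it, and its ratio was 4.97 (3.47 to 6.93) and 10.7 (6.74 to 16.2). For Dkk2 the ratio was 3.78 (2.58 to 5.39) over 76 nuclei and 4.22 (1.78 to 8.59) over 39. St6galnac5 gave 3.96 (2.54 to 5.93) and 4.89 (1.92 to 10.4), and Pmepa1 gave the lowest Ncx1+/+ ratio, 2.40 (1.51 to 3.63), with 6.11 (2.90 to 11.4) in Ncx1+/-. The set itself was put together with results of these data known, so these ratios describe it and do not test it.

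**Figure D2:**
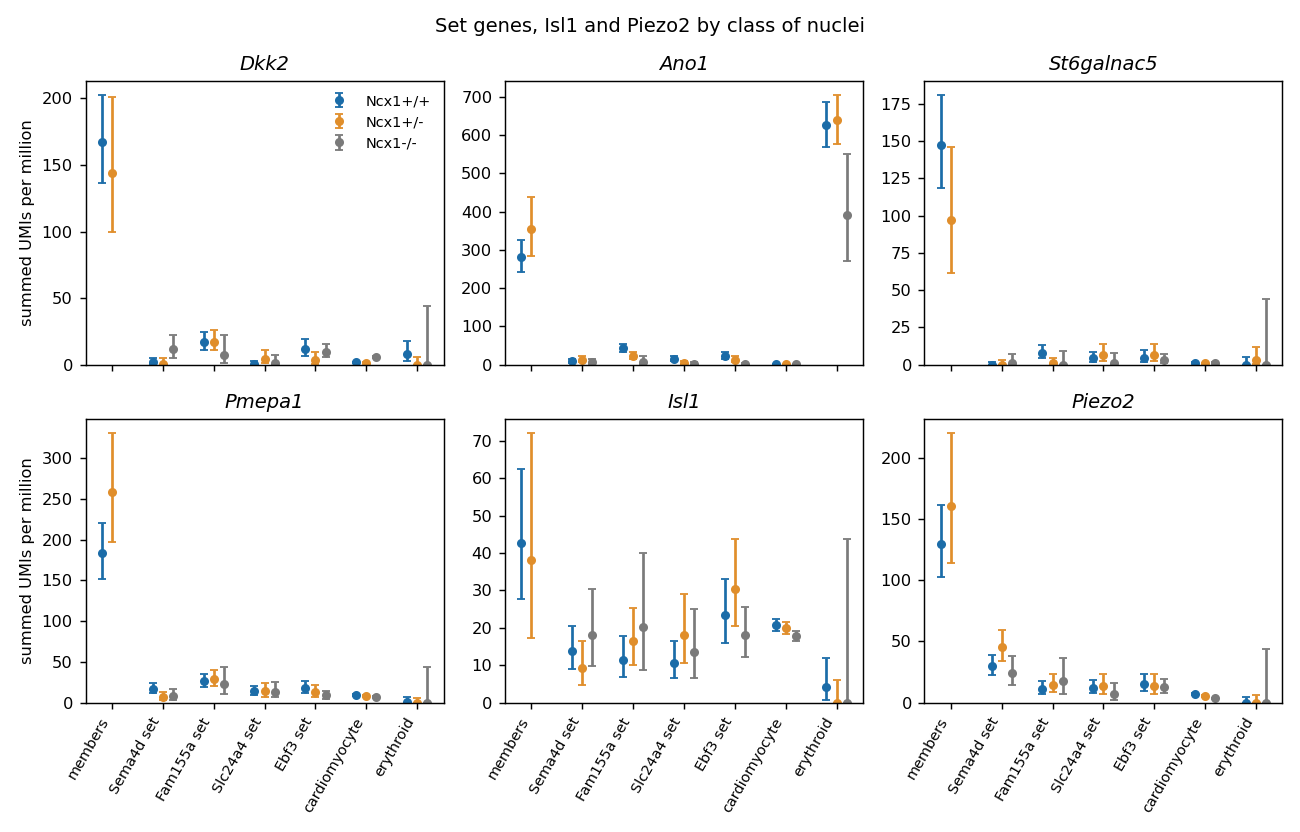
Summed CPM (y axis) of the 4 set genes, Isl1 and Piezo2 in members, in nuclei of 4 other marker sets and in cardiomyocyte and erythroid nuclei (x axis) of each library, with exact 95% Poisson intervals. The set genes and Piezo2 are highest in members among the endothelial classes plotted, Ano1 is higher still in erythroid nuclei, and the Isl1 intervals of members and Ebf3-set nuclei overlap.

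The proposed name for these nuclei, outflow endocardium, was checked against Isl1 and Piezo2 and against a list of outflow and second heart field genes. Isl1 (chr13:116298281-116309689, minus strand) stood at 42.6 CPM in Ncx1+/+ members against 24.7 in other gated nuclei, a ratio of 1.73 (1.11 to 2.57), with a UMI in 21 of 101 members. In Ncx1+/- it stood at 38.0 against 28.3 CPM, a ratio of 1.35 (0.610 to 2.58), and 6 of its 9 UMIs lay in 1 of the 4 members that had any. Cardiomyocyte nuclei held 20.7 and 19.9 CPM of Isl1. The Sema4d, Fam155a and Slc24a4 sets held less than members, 13.9, 11.5 and 10.7 CPM in Ncx1+/+ and 9.22, 16.4 and 18.2 in Ncx1+/-. Closer to members were the Ebf3 set (23.5 and 30.4 CPM) and the Sox9 set (38.5 and 28.6 CPM). The Ncx1+/- interval of Isl1 includes 1. Piezo2, a mechanically gated cation channel, stood higher in members of both libraries: 129 against 24.7 CPM, a ratio of 5.25 (4.07 to 6.69), in Ncx1+/+, and 161 against 27.8 CPM, a ratio of 5.78 (4.02 to 8.08), in Ncx1+/-. It had a UMI in 31 of 101 and 16 of 48 members. Set against all other gated nuclei, Isl1 thus gives the outflow label little support, though it stood above the 3 most like sets. The nuclei are called here by their leading genes, Dkk2 and Ano1.

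Beyond the 43 genes of the rule, 5450 genes were measured, meaning that at least 30 UMIs were observed or expected in the members of both libraries together. A gene was counted as higher or lower when its CPM in members differed from that in other gated nuclei at least 1.5-fold in the same direction in both libraries, with both counting intervals excluding 1. On that limit 128 genes (2.35%) were higher and 132 (2.42%) were lower. Because all of these genes come from the nuclei the rule picked, the counts are descriptive. The libraries gave like profiles: of 249 genes that passed the limit as higher in Ncx1+/+, whatever their Ncx1+/- value, 86.7% were on the higher side in Ncx1+/-, where 44.2% of all measured genes were. Of 357 lower genes 86.6% were on the lower side, against 55.8% of all measured genes.

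**Figure D3:**
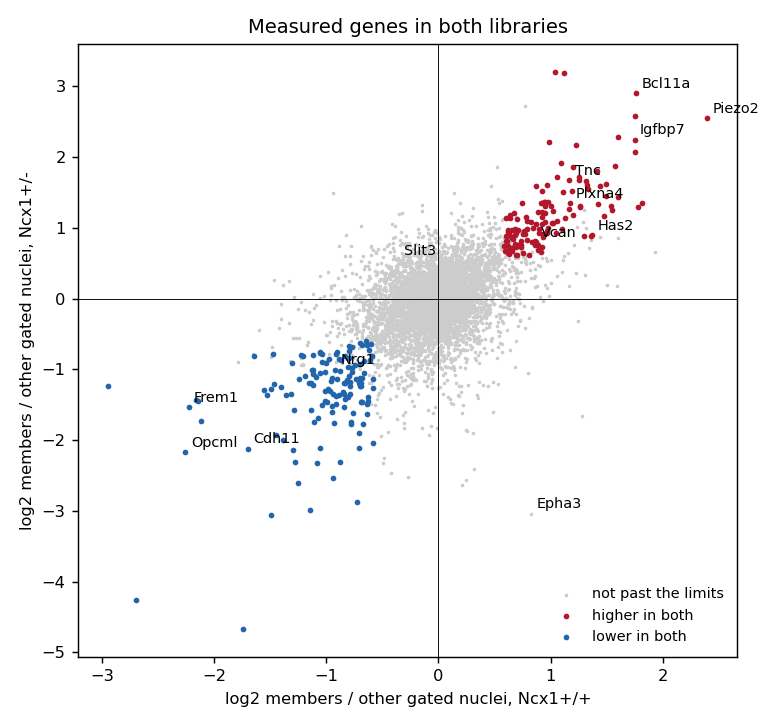
Each point is 1 of the 5450 measured genes, placed by its log2 ratio of members to other gated nuclei in Ncx1+/+ (x axis) and Ncx1+/- (y axis), with 0.5 UMIs added to each sum. Coloured points passed the limit in both libraries (128 higher, 132 lower), and a few genes that the text names carry labels.

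After Piezo2, the genes that stood furthest above other gated nuclei, ranked by the smaller of the 2 libraries' ratios, were of mixed kinds. Igfbp7, a secreted IGF-binding protein, stood at 149 against 44.5 CPM in Ncx1+/+ and 182 against 38.7 in Ncx1+/-. Bcl11a, a zinc-finger repressor best known from blood, stood at 42.6 against 12.8 and 76.1 against 10.4 CPM. Ldlrad4, a relative of Pmepa1 that also restrains TGF-beta signalling, had the highest member level of these genes: 641 against 211 CPM in Ncx1+/+, a ratio of 3.04 (2.73 to 3.37), and 723 against 148 in Ncx1+/-, a ratio of 4.88 (4.14 to 5.70). It was seen in 85 of 101 and 35 of 48 members, so it is spread over most of them. Stk38l, a kinase of the NDR family, stood at 259 against 87.0 and 249 against 68.5 CPM. Lrrc58 stood at 503 against 210 and 507 against 205 CPM, with a UMI in 88 and 39 members.

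Secreted and matrix-facing products were among them. Timp3, an inhibitor of metalloproteinases, stood at 200 against 71.4 CPM in Ncx1+/+ and 156 against 58.0 in Ncx1+/-. C1qtnf7, a secreted protein of the C1q and TNF family, stood at 167 against 47.6 and 80.3 against 32.1 CPM. Lama3, a laminin chain, stood at 39.3 against 16 and 59.2 against 20.2 CPM. Genes of the actin cytoskeleton were Synpo (44.2 against 13.3, 54.9 against 9.50 CPM) and Ablim3 (81.9 against 28.5, 59.2 against 24.7 CPM). Regulators included Cables1, an adaptor of cyclin-dependent kinases (70.5 against 21.2, 63.4 against 15.5 CPM), and Nfkbiz, a nuclear IkB protein (141 against 41.2, 101 against 42.3 CPM). Pde8a, a phosphodiesterase of cAMP, stood at 144 against 58.4 and 199 against 63.2 CPM.

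The others of the first 20 were Nr6a1os, Ntng1, Rasl11b, Arntl2, Myct1 and Galntl6, with Ncx1+/+ ratios between 2.39 and 2.99. Some of them rested on few nuclei: Ntng1 had UMIs in 8 and 4 members, and Myct1 in 5 of 48 Ncx1+/- members. Nr6a1os is an antisense transcript, and the sources used here do not state whether counting used strand. Without the member nucleus that held most of a gene's UMIs in each library, a check added after seeing the data, 108 genes were higher, of which 104 were among the 128, but Ntng1, Arntl2, Myct1 and Ablim3 no longer passed. All 20 were higher in members than in nuclei of the Sema4d, Fam155a and Slc24a4 sets in both libraries. Those sets are part of the other gated nuclei that the 20 were ranked against, so this describes the genes and tests nothing. Against the Sox9 set nuclei, 18 of 20 were higher in both; Ntng1 stood at 85.7 and 44.2 CPM there, and Galntl6 at 196 and 247 CPM, above the 169 CPM of Ncx1+/- members. Igfbp7 stood at 110 and 81.1 CPM in the Fam155a set and at 106 and 85.8 CPM in the Sox9 set.

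**Figure D4:**
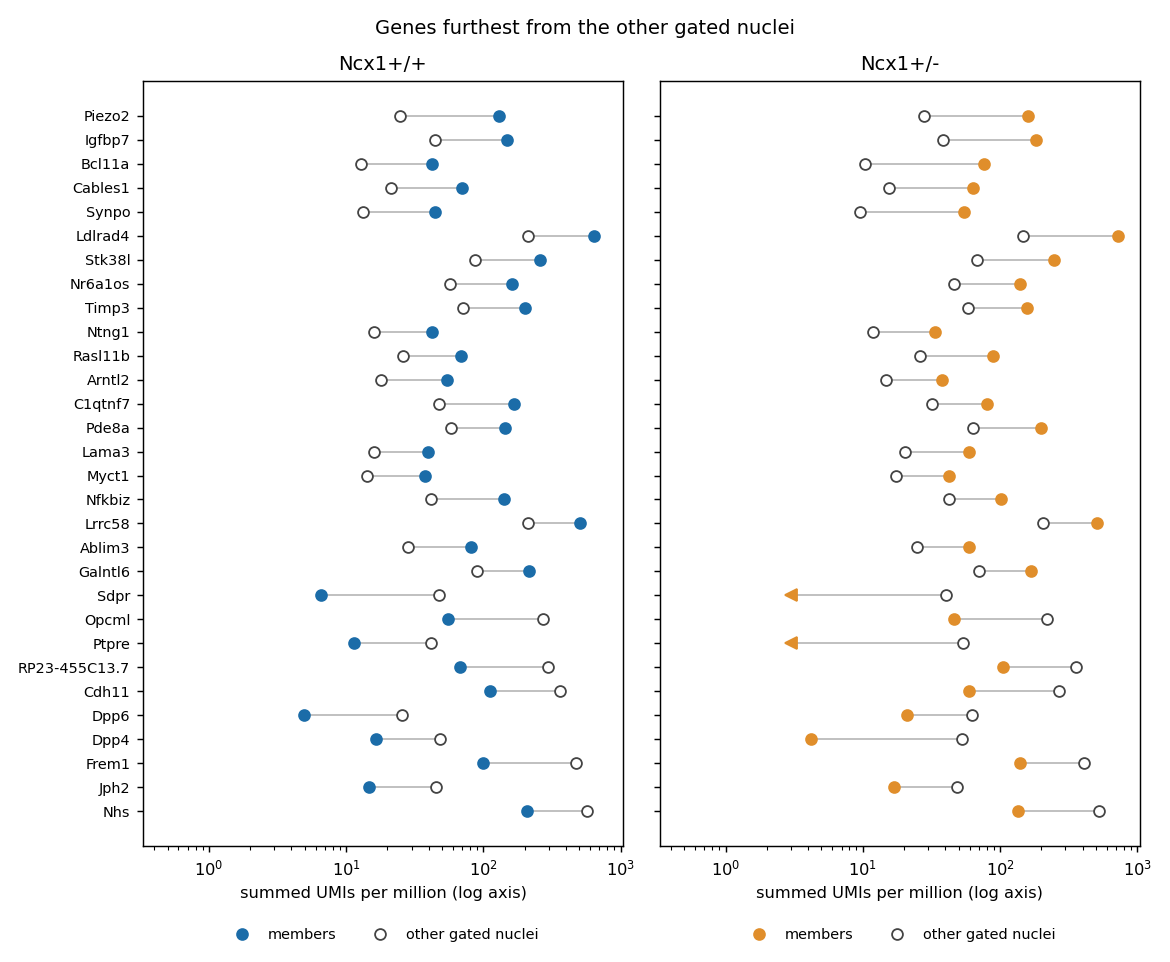
Summed CPM (log axis) in members (filled) and in other gated nuclei (open) of Ncx1+/+ (left) and Ncx1+/- (right) for the 20 genes furthest above and the 10 furthest below. Triangles stand for Sdpr and Ptpre, which had 0 UMIs in Ncx1+/- members and cannot be placed on a log axis.

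The genes furthest below other gated nuclei included adhesion and matrix genes of the wider endocardium. Opcml, an adhesion protein, stood at 55.7 against 270 CPM in Ncx1+/+ and 46.5 against 219 in Ncx1+/-, ratios of 0.206 (0.143 to 0.289) and 0.212 (0.106 to 0.381). Cdh11, a cadherin of endocardium and mesenchyme, stood at 111 against 364 and 59.2 against 267 CPM. Frem1, a matrix protein, stood at 99.9 against 472 and 139 against 410 CPM. Nhs stood at 206 against 567 and 135 against 523 CPM. Low levels of these genes were in part shared with the Fam155a set. Opcml stood there at 73.8 and 62.3 CPM, against 460 and 365 in the Sema4d set and 437 and 298 in the Slc24a4 set. Cdh11 (198 and 213 CPM), Frem1 (244 and 225) and Nhs (380 and 483) in the Fam155a set lay above members but below the Sema4d and Slc24a4 sets. Sdpr (Cavin2), a caveola protein, had 4 UMIs in Ncx1+/+ members (6.55 against 47.9 CPM) and 0 in Ncx1+/-. The latter is at least 3.18-fold lower than other gated nuclei by the limit of 3 UMIs, with an exact interval of 0 to 0.388. Ptpre had 7 UMIs (11.5 against 41.2 CPM) and 0, at least 4.24-fold lower by the same limit, with an exact interval of 0 to 0.291. Dpp4, a cell-surface protease, stood at 16.4 against 48.3 CPM in Ncx1+/+, and its single UMI in Ncx1+/- gave a ratio of 0.0798 (0.00202 to 0.446).

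The remaining low genes stood higher in cardiomyocyte nuclei than in other gated nuclei. Jph2, a junctophilin of muscle, stood at 14.7 against 45.0 and 16.9 against 48.8 CPM and at 255 and 251 in cardiomyocyte nuclei. RP23-455C13.7 stood at 67.2 against 296 and 106 against 359 CPM, and at 1249 and 1229 in cardiomyocyte nuclei. Dpp6, an accessory protein of potassium channels, had 3 and 5 UMIs in members. The cardiomyocyte list had 4 of its 11 measured genes lower in members (Myh6, Ryr2, Actn2 and Nebl) and none higher, with Ryr2 at 482 against 952 and 452 against 1100 CPM. Its 12 genes summed to 3726 and 3939 CPM in members and 5872 and 6896 in other gated nuclei. Slc8a1 stood at 1344 against 2835 CPM in Ncx1+/+ and 494 against 1605 in Ncx1+/-, with 218 of its 820 Ncx1+/+ UMIs in 1 member. The part of cardiomyocyte RNA in these differences was not tested. Within gated nuclei holding under 0.5% cardiomyocyte-gene UMIs, a check added after seeing the data, the higher of the RP23-455C13.7 ratios was 1.35. Of the 30 genes furthest above or below, only this 1 reversed there, so Jph2 and Dpp6 kept their direction. Members were 3.90% (84 of 2155), 2.10% (38 of 1806) and 0 of 1310 of such nuclei.

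Counts for each pathway list are read against the 2.35% higher and 2.42% lower among all measured genes, whose median log2 ratio was -0.02 in both libraries. Of 11 measured outflow and second heart field genes, 2 were higher (Piezo2, and the ligand Wnt5a at 50.8 against 31.7 and 54.9 against 26.2 CPM) and 1 was lower (the transcription factor Hand2, 52.4 against 90.6 and 38.0 against 82.2 CPM), with a median log2 ratio of 0.23 in both libraries. Of 14 endocardial genes none was higher and 4 were lower. These were Npr3, the clearance receptor of natriuretic peptides (259 against 608, 389 against 682 CPM), Nrg1, the neuregulin that signals to muscle (1034 against 1964, 833 against 1674 CPM), Ece1, the endothelin-converting enzyme (187 against 282, 148 against 263 CPM), and Cdh11. Nfatc1, the endocardial transcription factor, was at 493 against 442 and 524 against 396 CPM and did not pass. The members thus kept Nfatc1 RNA while Npr3 and Nrg1 stood at lower levels.

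Several genes that signal in the cushions or build their matrix stood higher in members. Of 6 measured genes on the list of atrioventricular canal and cushion signals, 3 were higher and none lower, with medians of 0.58 and 0.54 on the log2 scale. Has2, which makes hyaluronan, stood at 688 against 266 CPM in Ncx1+/+, a ratio of 2.59 (2.33 to 2.86), and 490 against 265 in Ncx1+/-, a ratio of 1.85 (1.52 to 2.23). Vcan, which encodes versican, a proteoglycan that binds hyaluronan, stood at 1432 against 784 and 1179 against 679 CPM. Bmper, a secreted modulator of BMPs, stood at 801 against 452 and 871 against 410 CPM.

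Of 26 measured cushion matrix genes, 5 were higher and 2 lower. The higher ones were Has2, Vcan, Timp3, the metalloproteinase Mmp2 (49.2 against 26.3, 50.7 against 23.7 CPM) and Tnc, tenascin C (202 against 90.2, 173 against 55.1 CPM). Lower were the collagen Col13a1 (11.5 against 94.5, 29.6 against 74.6 CPM) and the protease Adamts9 (27.9 against 89.5, 54.9 against 101 CPM). Cushion mesenchyme markers gave 1 higher (Tnc) and 1 lower (Cdh11) of 6. The list for endothelial-to-mesenchymal transition gave 1 higher (Has2) and 2 lower (Hand2, Cdh11) of 21, with medians of -0.08 and 0.00. Most of the transition list thus did not pass in either direction.

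In the TGF-beta and BMP list, with medians of 0.30 and 0.22, 3 of 33 measured genes were higher: Ldlrad4, Bmper and Ltbp1, a protein that stores latent TGF-beta in the matrix (1090 against 599, 934 against 552 CPM). The receptor Tgfbr2 was lower (73.7 against 145, 63.4 against 147 CPM). Pmepa1 is part of the rule and is not counted. In the Wnt list 1 of 17 was higher (Wnt5a) and none lower. The Notch list had 0 of 13 in either direction, the list of VEGF, apelin and angiopoietin genes 0 of 9, and neuregulin and FGF genes had 2 of 9 lower (Nrg1, Spry2). Of 3 measured genes of retinoic acid, Cyp26b1 was lower (22.9 against 52.4 CPM in Ncx1+/+, 1 UMI in Ncx1+/-).

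Guidance receptors and ligands had 3 of 11 measured genes higher and none lower. They were Slit2 (1437 against 900, 1589 against 961 CPM), the netrin receptor Unc5b (139 against 91.2, 131 against 79.5 CPM) and the ephrin Efna5 (1021 against 631, 1137 against 599 CPM). Among semaphorins and their receptors, Plxna4 was the 1 higher gene of 11, at 1099 against 488 and 1082 against 426 CPM, and none was lower. Of the relatives of the set genes, St6gal1 was the 1 higher of 8 measured sialyltransferases (442 against 194, 549 against 193 CPM), and none of 3 measured anoctamins passed (Ano6 was at 475 against 388 and 473 against 353 CPM).

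Lists tied to blood flow gave few genes. Of 13 mechanosensor genes Piezo2 alone was higher, and of 14 flow-response genes Klf4, a factor induced by shear stress, was higher (45.9 against 15.9, 38.0 against 16.8 CPM) and Ece1 lower. Of 23 cilia and hedgehog genes, the hedgehog co-receptor Boc was higher (65.5 against 38.4, 54.9 against 28.8 CPM). Arterial genes gave 1 higher of 7 (Unc5b), venous and lymphatic genes 0 of 6, hypoxia and glycolysis genes 2 lower of 24 (Pfkp, P4ha1), and erythroid genes 0 of 4. The cell cycle list had 1 lower of 39 (Ccnd2, 80.3 against 149 and 80.3 against 167 CPM). A UMI of Mki67 or Top2a was present in 66.3% of Ncx1+/+ members and 71.9% of other gated nuclei, and in 62.5% and 68.6% in Ncx1+/-. RNA quality genes gave 0 of 11.

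Of lists for other cell types, none of the genes for megakaryocytes and white blood cells, epicardium, neural crest or pharyngeal epithelium was measured at the minimum of 30 UMIs. Neural crest genes summed to 41.0 and 21.1 CPM in members and 15.0 and 11.9 in other gated nuclei. Most of the Ncx1+/+ neural crest sum came from Erbb3, with 18 UMIs in members (29.5 against 6.76 CPM), a ratio of 4.36 (2.50 to 7.21). In Ncx1+/- it had 3 UMIs (12.7 against 3.38 CPM), a ratio of 3.75 (0.745 to 11.7). Sox10, Foxd3 and Tfap2b had 0 UMIs in members, but Foxd3 and Tfap2b were also at 0 CPM in other gated nuclei. On the lists of megakaryocytes, epicardium and pharyngeal epithelium, 5, 5 and 6 of 10 genes had 0 UMIs in members. Summed levels of those 3 lists in members ranged from 8.45 to 25.4 CPM and were no higher than 49.1 CPM in other gated nuclei of Ncx1+/+ and Ncx1+/-.

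The members varied with how many set genes chose them. The first 20 genes summed to 901 CPM in Ncx1+/+ gated nuclei with no set gene and 1622 in those with 1, which lie just outside the threshold. They summed to 3101 CPM in members with 2 set genes, just inside, and 3403 in those with 3 or 4. The 20 genes were ranked by members over other gated nuclei. A higher sum in members follows from that ranking and does not test where the threshold lies. Nuclei with 2 or more set genes that tied with or fell below another set stood at 1783. The Ncx1+/- values were 818, 1464, 3023, 3880 and 1475 CPM. In Ncx1-/- nuclei with no set gene the sum was 689 and in those with 1 it was 908. Members with Dkk2 (34 in Ncx1+/+) and without it (67) had sums of 3189 and 3193 CPM. Igfbp7 stood at 91.2 CPM in Ncx1+/+ members with 2 set genes and 285 in those with 3 or 4, and at 145 and 340 CPM in Ncx1+/-, where only 8 members had 3.

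Members of Ncx1+/- were set against members of Ncx1+/+ over 5077 genes with at least 30 UMIs observed in the members of both libraries together. These compare 1 library with 1 library, and no difference has a replicate check. At 1.5-fold with the interval excluding 1, 160 genes (3.15%) stood higher in Ncx1+/- and 149 (2.93%) lower. Qtrtd1 stood at 18.0 CPM in Ncx1+/+ members and 93.0 in Ncx1+/- members, a ratio of 5.16 (2.40 to 11.8), with UMIs in 11 of 101 and 17 of 48. In other gated nuclei it stood at 36.1 and 33.9 CPM. Neil2, a DNA glycosylase, stood at 18.0 and 84.5 CPM, a ratio of 4.69 (2.14 to 10.8), over 11 and 17 members, and at 11 and 13.0 CPM in other gated nuclei. Tmem163, the lowest of the 5 genes named on this side, stood at 29.5 and 93.0 CPM over 8 and 7 members. In other gated nuclei it stood at 73.8 and 93.7 CPM, so its Ncx1+/- members were near that level and its Ncx1+/+ members below it.

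Other genes near the top rested on single nuclei. Tll1, a protease of the BMP1 family, stood at 77.0 and 249 CPM, but 40 of its 59 Ncx1+/- UMIs were in 1 nucleus, and Tecrl stood at 42.6 and 135 CPM with 21 of 32 in 1 nucleus. On the lower side, the Eph receptor Epha3 stood at 72.1 CPM in Ncx1+/+ and had no UMI in Ncx1+/- members. Epha3 was at least 5.69-fold lower by the limit of 3 UMIs, with an exact interval of the ratio of 0 to 0.226. In Ncx1+/+, 30 of its 44 UMIs were in 1 of 5 nuclei. It was also lower in other gated nuclei, 17.4 against 41.0 CPM. Ppm1e had 31 UMIs over 17 Ncx1+/+ members and 1 UMI in Ncx1+/-, a ratio of 0.0832 (0.00204 to 0.499), and AU040320 had 30 over 24 and 1, a ratio of 0.0860 (0.00211 to 0.517). Tnik had 35 and 2 UMIs, a ratio of 0.147 (0.0172 to 0.574). Slc25a21 had the same counts, with 28 of 35 in 1 nucleus. Of the 20 genes that led the members, C1qtnf7 alone passed this limit between the libraries, at 167 CPM in Ncx1+/+ and 80.3 in Ncx1+/- members, a ratio of 0.480 (0.278 to 0.789).

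Since Ncx1-/- had no member, the leading genes were followed there over all gated nuclei. Over 14507 genes measured, 491 (3.38%) were lower in Ncx1-/- than in both other libraries and 1310 (9.03%) were higher, at 1.5-fold with both intervals excluding 1. Of the 20 leading genes, 7 were lower and none higher. Below both libraries, whatever the size of the difference, lay 16 of the 20, where 4908 of all 14507 measured genes did. The 20 were chosen as high in members of Ncx1+/+ and Ncx1+/-, and Ncx1-/- had no part in the choice. That choice by itself can place them lower in Ncx1-/-. These counts and the median below therefore describe the genes and test nothing against all measured genes. C1qtnf7 stood at 51.8, 33.0 and 12.3 CPM in gated nuclei of Ncx1+/+, Ncx1+/- and Ncx1-/-. Galntl6 stood at 95, 71.9 and 25.6 CPM, Ablim3 at 30.3, 25.4 and 9.78, and Stk38l at 93.0, 71.8 and 35.9. Ldlrad4 stood at 226, 159 and 100 CPM, Igfbp7 at 48.2, 41.3 and 22.2, and Nfkbiz at 44.7, 43.3 and 22.3. The median log2 ratio of Ncx1-/- to Ncx1+/+ over the 20 genes was -0.63, where all measured genes had 0.12. It was -0.54 when the Ncx1+/+ members were left out, a check added after seeing the data. On the other side stood Lama3, at 1.65 times its Ncx1+/+ level (1.41 to 1.94), Myct1 at 1.39 times (1.16 to 1.65) and Pde8a at 1.18 times (1.08 to 1.29).

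**Figure D5:**
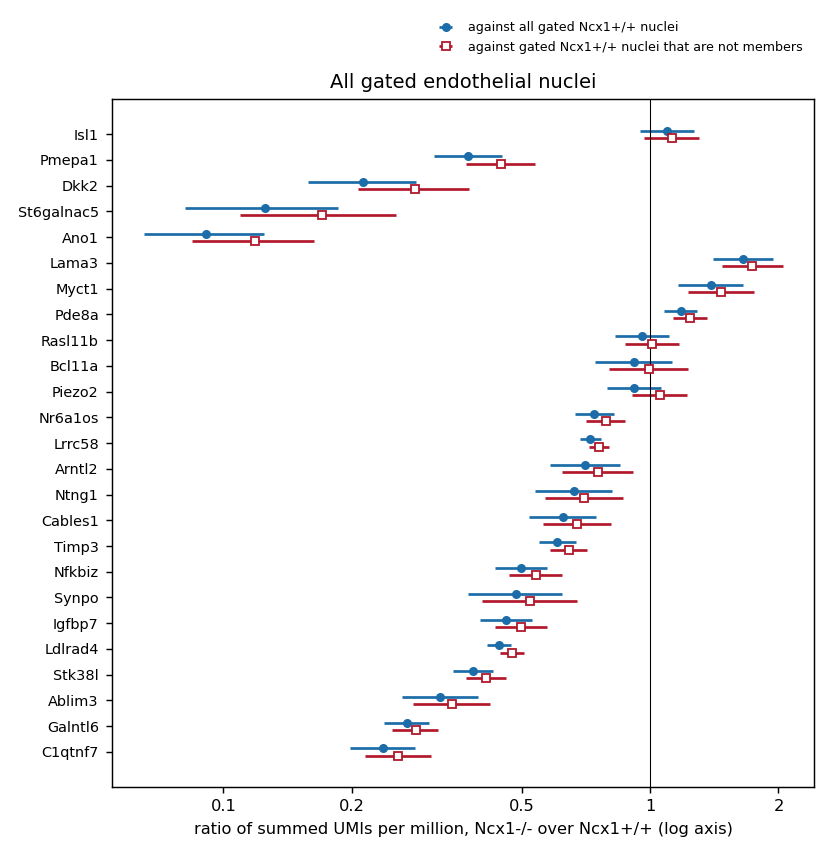
Ratio of summed CPM in all gated Ncx1-/- nuclei to all gated Ncx1+/+ nuclei (filled) and to gated Ncx1+/+ nuclei that were not members (open), log axis, with exact 95% intervals for counting error. The 4 set genes and C1qtnf7, Galntl6 and Ablim3 lie furthest below 1, Isl1, Piezo2, Bcl11a and Rasl11b lie at 1 within their intervals, and Lama3, Myct1 and Pde8a lie above.

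Isl1 and Piezo2, which were proposed as markers of the same nuclei, did not follow the set genes in Ncx1-/-. Over all gated nuclei, Isl1 stood at 25.3, 28.5 and 27.7 CPM in Ncx1+/+, Ncx1+/- and Ncx1-/-, and had a UMI in 9.99%, 9.77% and 10.2% of nuclei, against 4.68%, 4.09% and 3.83% of cardiomyocyte nuclei. Piezo2 stood at 28.3, 30.2 and 26.0 CPM, and had a UMI in 9.88%, 9.25% and 8.33% of nuclei, against 2.23%, 1.88% and 0.984% of cardiomyocyte nuclei. Median depths were 3720, 3380 and 3592 UMIs in cardiomyocyte nuclei.

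Nuclei were also picked by a Piezo2 UMI, a choice that does not use the set genes directly. It is not independent of them, since Piezo2 stood higher in members and 31, 16 and 0 of the picked nuclei were members. Within the picked nuclei, Ano1 stood at 94.3, 56.1 and 4.77 CPM in 287, 231 and 187 nuclei of the 3 libraries. St6galnac5 stood at 29.1, 17.0 and 0.954 CPM there, Dkk2 at 38.5, 24.9 and 13.4, and Pmepa1 at 49.4, 53.3 and 27.7. At least 1 set gene was seen in 45.0%, 39.0% and 18.2% of them, at median depths of 6054, 5399 and 4543 UMIs. Within nuclei picked by an Isl1 UMI (290, 244 and 228), St6galnac5 stood at 32.4, 11.2 and 1.40 CPM, Ano1 at 26.5, 13.1 and 5.61, Dkk2 at 32.4, 15.8 and 10.5, and Pmepa1 at 70.1, 46.6 and 22.4. Over all gated nuclei picked in these ways, RNA of each set gene was lowest in Ncx1-/-. The order did not hold throughout among picked nuclei with under 0.5% cardiomyocyte-gene UMIs, where Dkk2 stood at 44.1, 22.5 and 29.3 CPM in those with an Isl1 UMI, the last from 15 UMIs. Depth, the Malat1 share, hypoxia genes and cardiomyocyte RNA differ in the same library, and their part in this was not tested.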

How the data were processed

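The deposited files hold UMI counts per gene and nucleus, made by the authors with Cell Ranger 6.1.0 on mm10, per the submitters' processing notes; the matrix header names Cell Ranger 9.0.0. Nuclei of homogenised frozen hearts were sorted by FACS and went into 10x v3.1 libraries, per the labels' protocols. The sources used here do not state whether intronic reads or strand were counted. No cell type annotation was used. Counts were used as deposited in Python 3.11.15 (numpy 2.4.6, scipy 1.17.1, pandas 2.3.3, scanpy 1.11.5 for Scrublet, matplotlib 3.10.9).

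UMIs were summed per class of nuclei and library and divided by the class total. Ratios carry exact conditional binomial intervals and shares Clopper-Pearson intervals at 95%. The limit for 0 is 3 counts, and log2 ratios use 0.5 added UMIs. Cardiomyocyte nuclei had under 2 gate genes and at least 5 of 8 cardiomyocyte genes, and erythroid nuclei at least 4 genes of the erythroid list. Coordinates are GENCODE M21 on mm10, where 27722 of 27998 gene identifiers (99.0%) were found.

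The genes named are the 20 with the largest smaller ratio of both libraries and the 10 with the smallest larger ratio among genes past the limit, the 5 in each direction with the largest change between the libraries' members, the set genes, Isl1, Piezo2 and Slc8a1, and genes of the 30 lists. Predicted, ribosomal, mitochondrial, globin and sex-linked genes were not ranked. The members and the lists were chosen with earlier results of these data known. Scripts were tested on simulated data. Doublets were not removed from the values reported; removing the top 8% of Scrublet scores together with nuclei over 5% mitochondrial UMIs was an alternative. Other alternatives changed the gene minimum, gate, set, depth, scaling, UMI minimum and fold. Those on cardiomyocyte and erythroid UMIs, on leaving out members and on each gene's highest nucleus were added after seeing the data.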

Additional observations from a re-analysis of the deposited data

Results flagged for a closer look

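Among the named genes and the genes of the 30 lists, 3 stood on opposite sides of other gated nuclei in the members of the 2 libraries, with counting intervals that exclude 1; the difference between the libraries was not tested. Epha3, an Eph receptor, had a members-to-others ratio of 1.76 (1.26 to 2.38) in Ncx1+/+ and 0 (0 to 0.906) in Ncx1+/-, and 30 of its 44 Ncx1+/+ UMIs were in 1 nucleus. Slit3, a guidance ligand, had a ratio of 0.777 (0.645 to 0.928) in Ncx1+/+, at 205 against 264 CPM, and 1.44 (1.16 to 1.78) in Ncx1+/-, at 380 against 263 CPM. Malat1, the nuclear RNA used as a sign of RNA quality, had ratios of 1.08 (1.07 to 1.10) and 0.967 (0.944 to 0.991).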

How the results depend on the processing

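The share of members moved with the rule. With at least 3 set genes it was 0.895% in Ncx1+/+ and 0.320% in Ncx1+/-, and with ties allowed 5.99%, 2.84% and, in Ncx1-/-, 0.267%. Thinned to 2500 UMIs it was 2.03% and 1.41%, with a ratio of 0.694 whose interval includes 1; every other alternative kept that ratio between 0.315 and 0.617. Without Ano1 in the set it was 1.38% and 0.761%, without St6galnac5 2.27% and 1.40%, without Pmepa1 1.65% and 0.521%, and without Dkk2 2.62% in Ncx1+/+. Without any erythroid UMI it was 4.28% in Ncx1+/+. Nuclei with an Isl1 UMI were 8.68%, 8.47% and 8.93% of gated nuclei under 0.5% cardiomyocyte UMIs.

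Counts of genes higher and lower in members were 79 and 70 with at least 3 set genes, 41 and 45 at a fold of 2, and 65 and 64 without erythroid UMIs. Between the libraries' members they were 92 and 80 with at least 3 set genes, and 68 and 79 at a fold of 2, and 303 were higher with no minimum of UMIs. These settings use fewer nuclei, a larger fold or more genes by construction. The median over leading genes in Ncx1-/- lay between -0.78 and -0.54 on the log2 scale.

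Tecrl reversed to a ratio of 0.709 after removal of high mitochondrial and Scrublet nuclei, 0.543 under 0.5% cardiomyocyte UMIs, and 0 with at least 3 set genes and without erythroid UMIs; 1 nucleus held 21 of its 32 UMIs. Cables1 fell to 0 in 1 library with at least 3 set genes. RP23-455C13.7 reversed to 1.35 under 0.5% cardiomyocyte UMIs. Without erythroid UMIs, which left 35 and 12 members, Ntng1 reversed to 0.954, Lama3 to 0.785, Myct1 to 0.671, Ablim3 to 0.720 and Slc25a21 to 3.23; the cause was not tested beyond the smaller number of members. Of the values for single named genes under these alternatives, 300 kept direction and side of the limit, 68 kept direction only and 11 reversed. No paired analysis was possible because each genotype is 1 library, and for the same reason no replicate could be left out. Depth limits single genes, since members held 610329 and 236615 UMIs in all.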
